A study of Mus musculus with 15 samples.

Results

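Coverage at the ends of the 19 mouse autosomes was compared with coverage in their interiors. A centromere end was the first 3 Mb after the lowest listed CG of a chromosome, a telomere end was the last 3 Mb before the highest, and the rest of the autosome was its interior. Of the 21353092 CGs listed in the 5hmC coverage data, 965627 (4.522%) lay in the 38 ends, 471091 of them at centromere ends and 494536 at telomere ends, and 19417996 lay in the interiors. The members were chosen by position alone and no measured value entered the choice. All libraries were made from DNA of E14TG2a, a mouse embryonic stem cell line grown on gelatin with LIF and serum. In hmTOP-seq, 5-hydroxymethylcytosine (5hmC) was glucosylated by BGT with an azide-bearing sugar, an oligonucleotide was clicked onto it, and reads were primed from that tether. The DNA input was 500, 50 or 5 ng, with a technical replicate pair per input (n = 2) and, as background, 2 libraries per input from which BGT had been left out. In uTOP-seq, which tags unmodified CG sites instead, 300 ng of DNA were used in 3 replicates. Every library shares the same cell line, so the replicates give the technical spread and not the spread between cultures.

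Mouse autosomes carry the centromere at one tip, next to satellite arrays that the assembly leaves out, and the assembled sequence therefore begins just inside the pericentromeric region. The other tip ends in subtelomeric sequence before the telomere repeats. Segmental duplications and gene families that vary in copy number can occur near either tip. 5hmC is made from 5-methylcytosine by TET enzymes and is known in embryonic stem cells from gene bodies and enhancers, whereas unmodified CG sites concentrate in CpG islands at promoters. Because a read is kept only where it can be placed uniquely, duplicated sequence is seen less well by either assay.

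Sequences of GRCm38 around 6 CGs show what the ends hold at their extremes, with every CG in capitals, 60 bases on either side of the listed CG and unknown bases left out. For each end kind, the first is the CG outside repeats with the most 500-ng reads, and the others are the outermost listed CGs of the end with the highest ratio of 5hmC coverage to interior CGs of equal local CG number, and of one of those with the lowest. All are written from the plus strand.
Most reads, centromere ends, chr11:3146083-3146204: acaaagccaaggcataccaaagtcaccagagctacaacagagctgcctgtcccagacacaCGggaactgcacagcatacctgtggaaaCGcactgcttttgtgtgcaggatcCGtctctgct
Outermost CG, high centromere end, chr11:3100001-3100092: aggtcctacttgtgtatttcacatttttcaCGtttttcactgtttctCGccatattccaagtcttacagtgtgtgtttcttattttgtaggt
Outermost CG, low centromere end, chr14:3000038-3000159: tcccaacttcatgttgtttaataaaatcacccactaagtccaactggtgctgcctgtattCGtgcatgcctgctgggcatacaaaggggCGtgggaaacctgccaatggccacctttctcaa
Most reads, telomere ends, chr19:61267100-61267221: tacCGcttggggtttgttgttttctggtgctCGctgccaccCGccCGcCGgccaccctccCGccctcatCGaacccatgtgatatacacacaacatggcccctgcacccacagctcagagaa
Outermost CG, high telomere end, chr15:103943485-103943606: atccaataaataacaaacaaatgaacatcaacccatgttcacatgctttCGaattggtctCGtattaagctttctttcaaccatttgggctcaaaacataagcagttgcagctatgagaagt
Outermost CG, low telomere end, chr17:94886845-94886966: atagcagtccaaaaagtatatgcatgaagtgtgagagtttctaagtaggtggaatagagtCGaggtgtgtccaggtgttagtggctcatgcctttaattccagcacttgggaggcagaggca
The most-read CG so chosen at the centromere ends, at position 3146143 of chromosome 11, lies in an intron of Sfi1, which encodes a centrin-binding protein of the centrosome. The 500-ng replicates placed 486 and 472 reads on it, the 5-ng replicates 251 and 259, and the uTOP-seq replicates 222, 179 and 179, although neither strand of its flanking 80 bases occurs only once in the assembly. The most-read CG so chosen at the telomere ends, at position 61267160 of chromosome 19, lies in no protein-coding gene, 64.0 kb from the outermost CG, and both of its strands are unique. It had 281 and 252 reads at 500 ng and 112, 85 and 70 in uTOP-seq, and 15 other CGs lie within 250 bp. The outermost CGs had 0 reads in all 9 labeled libraries, except that of chromosome 17, with 1 read in the second 500-ng and 1 in the second uTOP-seq replicate.

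Pooled over all CGs, reads per CG were higher at telomere ends than in the interiors, and at centromere ends lower for 5hmC and slightly higher for unmodified CG. With the 500-ng input, the 2 replicates had 1.57 and 1.54 reads per CG in the interiors, 1.49 and 1.47 at centromere ends and 1.85 and 1.80 at telomere ends. At 50 ng the values were 1.11 and 1.07, 1.06 and 1.01, and 1.28 and 1.23 in the same order. At 5 ng they were 0.720 and 0.739, 0.680 and 0.704, and 0.820 and 0.835. In uTOP-seq the 3 replicates had 1.37, 1.11 and 0.967 reads per CG in the interiors, 1.38, 1.12 and 0.979 at centromere ends and 1.65, 1.34 and 1.17 at telomere ends. The centromere values include 1298 CGs of the overlapping genes Sfi1 and Drg1 on chromosome 11, with 15.2, 12.4 and 11.3 uTOP-seq reads per CG. Pooled values without these CGs were not computed, so the slight excess for unmodified CG may rest on that locus. In each of these 9 libraries the telomere ends lay above the interiors, and in the 6 hmTOP-seq libraries the centromere ends lay below. For 5hmC the share of CGs with a read moved the same way, from 33.2% and 34.8% in the interiors at 500 ng to 30.8% and 32.1% at centromere ends and 37.0% and 38.5% at telomere ends. In uTOP-seq it rose at telomere ends to 43.8%, 40.9% and 38.6% from 39.1%, 36.5% and 34.1% in the interiors, but at centromere ends it was lower, at 37.2%, 34.6% and 32.5%, where reads per CG were higher.

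These pooled values give most weight to the CG-rich ends, so each end was also set against the interior of its own autosome, with every autosome counting equally. The expected value came from interior CGs with the same number of other CGs within 250 bp, since coverage depends on local CG number. Centromere ends had a mean log2 ratio of 5hmC coverage over expected of -0.59 at 500 ng (SD 1.35 over 19 autosomes), a ratio of 0.663 (95% interval 0.436 to 1.01), and lay below expected in 14 of 19 autosomes. The sign-flip permutation p was 0.0187, and 0.0745 after Benjamini-Hochberg adjustment over the 16 end comparisons, which missed the 0.05 threshold. At 50 ng and 5 ng the ratios were 0.675 and 0.684, both with an adjusted permutation p of 0.0745. For unmodified CG the ratio was 0.716 (0.468 to 1.10; adjusted permutation p = 0.116), below expected in 13 of 19.

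Over the whole 3 Mb, telomere ends did not pass the test in either assay, and about as many lay above expected as below. Their mean log2 ratio at 500 ng was -0.10 (SD 0.62), a ratio of 0.930 (95% interval 0.767 to 1.13; adjusted permutation p = 0.574), with 10 of 19 autosomes above expected. For unmodified CG it was 0.04 (SD 0.44), a ratio of 1.03 (0.894 to 1.18; adjusted permutation p = 0.713), with 12 of 19 above. The intervals leave room for a shift of either sign. The equal-weight mean at 500 ng is thus below 1 where the pooled coverage is above it, and the median over autosomes was 1.003. Without matching, the 500-ng ratios were 0.628 at centromere ends and 0.883 at telomere ends, against 0.663 and 0.930 with it. The telomere end was 1.40 times the centromere end of the same autosome for 5hmC (0.876 to 2.24; adjusted permutation p = 0.257) and 1.43 times for unmodified CG (0.890 to 2.31; adjusted permutation p = 0.153).

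The ends differed from each other far more than the replicates did. The range between the 500-ng replicates of an end had a median of 0.01 on the log2 scale at either kind of end, against an SD over autosomes of 1.35 and 0.62. Only the centromere end of chromosome 7 and the telomere end of chromosome 16 changed side between the 500-ng replicates, with ratios of 1.005 and 0.999, and of 0.9997 and 1.006. At 5 ng these same ends and the telomere end of chromosome 8 changed side, and in uTOP-seq the centromere end of chromosome 10 and the telomere ends of chromosomes 9 and 12.

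**Figure D1:**
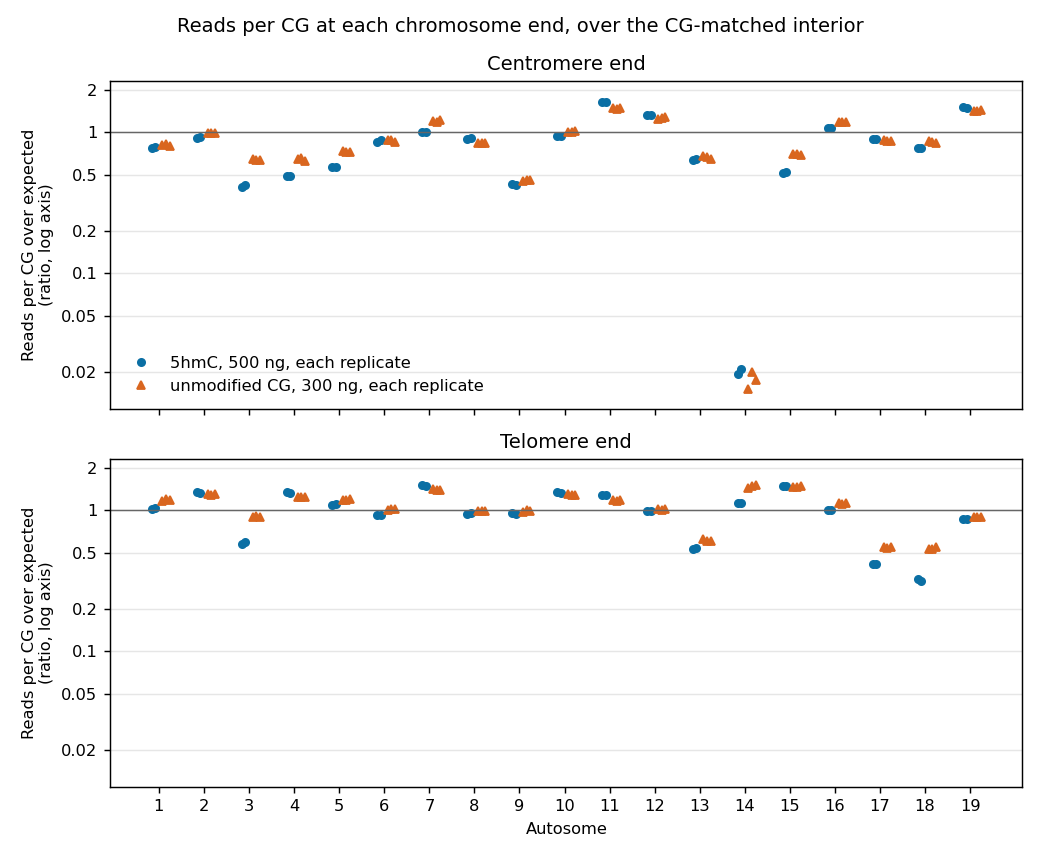
Reads per CG at each end divided by the expected reads per CG from interior CGs of equal local CG number (log axis), by autosome, with 1 point for each replicate of 5hmC at 500 ng (circles, n = 2) and of unmodified CG (triangles, n = 3). Replicates nearly coincide, the centromere end of chromosome 14 lies near 0.02 in all 5 libraries, and most ends lie on the same side of 1 in both assays.

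At centromere ends, 3 autosomes stood highest for 5hmC and 3 lowest by matched ratio. The end of chromosome 11 had 3.73 and 3.65 reads per CG at 500 ng against 2.20 and 2.15 in its interior, a matched ratio of 1.63. Chromosome 19 had 2.78 and 2.69 against 1.69 and 1.66, a ratio of 1.49. Chromosome 12 had 1.80 and 1.78 against 1.34 and 1.32, a ratio of 1.32. All 3 were also above expected for unmodified CG, with ratios of 1.47, 1.41 and 1.26. At the other extreme, chromosome 3 had 0.440 and 0.442 reads per CG against 1.22 and 1.21, a ratio of 0.415. Chromosome 9 had 0.642 and 0.625 against 1.63 and 1.60, a ratio of 0.425. Their ratios for unmodified CG were 0.638 and 0.455.

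The centromere end of chromosome 14 stood apart in every library, with 0.0199 and 0.0215 reads per CG at 500 ng, 0.0137 and 0.0108 at 5 ng, and 0.0133, 0.0143 and 0.0106 in uTOP-seq. Its interior had 1.28 and 1.26 reads per CG at 500 ng, and the matched ratio was 0.0201 for 5hmC and 0.0176 for unmodified CG. Of its 19315 CGs, 96.9% had no read in any of the 9 libraries. Only 8.02% of them were anchored on both strands in an 80-base stretch found once in the assembly, and 73.3% on neither, against 86.2% unique on both strands in its interior. Among its unique CGs the 5hmC ratio was 0.0920. Without chromosome 14, the mean ratio of the centromere ends was 0.805 for 5hmC (adjusted permutation p = 0.123) and 0.880 for unmodified CG (adjusted permutation p = 0.230).

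The high value at chromosome 11 rested in part on a single locus. Sfi1 (chr11:3131850-3193463) and the overlapping Drg1 (chr11:3187360-3266415), which encodes a GTP-binding protein, hold 3.63% of the CGs of that end but 22.5% and 22.0% of its 500-ng reads and 20.03%, 20.3% and 20.9% of its uTOP-seq reads. Coverage over the pair was 13.2 times the matched interior for 5hmC and 8.71 times for unmodified CG. Without them, a choice made after these values were seen, the end of chromosome 11 had ratios of 1.300 and 1.31 in the replicates in place of 1.63 for 5hmC and 1.21 in place of 1.47 for unmodified CG, above expected in both. Of the CGs in Sfi1, 59.9% were unique on both strands.

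At telomere ends, chromosome 15 had the highest matched ratio, with 2.80 and 2.73 reads per CG at 500 ng against 1.67 and 1.63 in its interior and a ratio of 1.49. By reads per CG alone chromosome 11 was highest, with 3.10 and 3.01 and a ratio of 1.27. By matched ratio chromosome 7 followed with 2.295 and 2.20 against 1.60 and 1.56, a ratio of 1.48, and chromosome 2 with 2.28 and 2.20 against 1.60 and 1.57, a ratio of 1.33. Chromosomes 15 and 7 differed by less than the replicates of chromosome 7 did from each other (1.499 and 1.471). The ratios for unmodified CG were 1.47, 1.40 and 1.30. The lowest matched ratio was that of chromosome 18, with 0.344 and 0.328 reads per CG against 1.43 and 1.41, a ratio of 0.322. Chromosome 17 had 0.528 and 0.519 against 1.85 and 1.81, a ratio of 0.415, and chromosome 13 had 0.649 and 0.654 against 1.32 and 1.31, a ratio of 0.538. Their ratios for unmodified CG were 0.537, 0.545 and 0.612. The telomere end of chromosome 17 holds 2 protein-coding genes, and genes cover 1.17% of it.

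With distance, 5hmC coverage rose from the telomere tip inward. In bins of 0.5 Mb, the median ratio over 19 autosomes at 500 ng was 0.684, 0.749, 0.793, 0.934, 1.13 and 1.09 from the tip to 3 Mb, and 1.16, 1.005 and 0.999 at 3 to 5, 5 to 10 and 10 to 20 Mb. For unmodified CG it was 0.747 in the outermost bin, already 0.992 in the next, and 1.01, 1.12, 1.22 and 1.07 further in. From the centromere tip the 5hmC medians were 0.584, 0.749, 0.815, 0.682, 0.710 and 0.621, and they stayed below 1 beyond the end, at 0.598, 0.856 and 0.736. The outermost 0.5 Mb had the lowest median of the 6 bins at both kinds of end and in both assays. Between 3 and 5 Mb from the centromere tip, 18 of 19 autosomes were below expected for 5hmC.

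**Figure D2:**
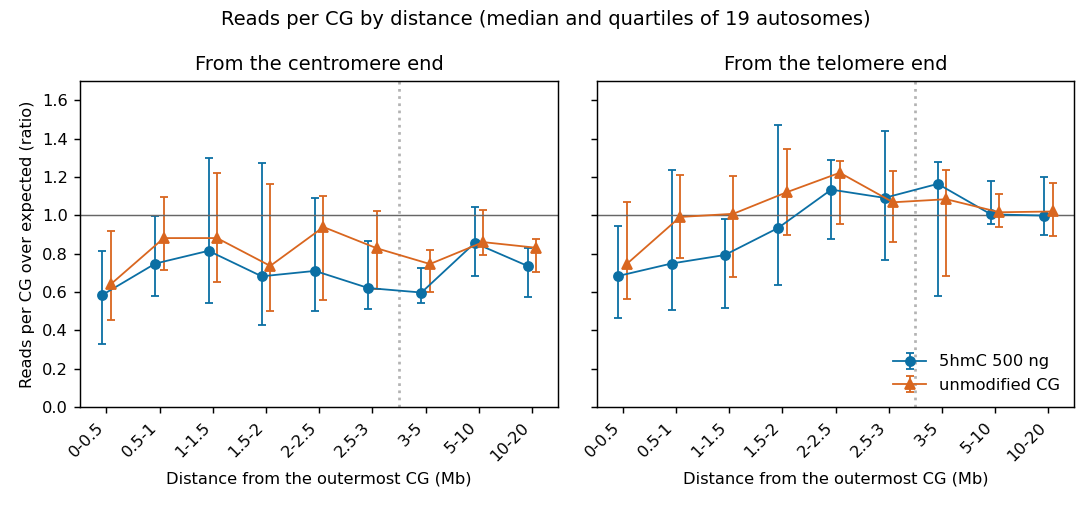
Median over 19 autosomes of reads per CG over the matched interior, by distance in Mb from the outermost listed CG, for 5hmC at 500 ng (circles) and unmodified CG (triangles). Bars span the quartiles of the autosomes and the dotted line marks 3 Mb. From the telomere tip the 5hmC median climbs from 0.684 to 1.16 at 3 to 5 Mb, and from the centromere tip it stays between 0.584 and 0.856.

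With ends of 1 Mb in place of 3 Mb, the shift in 5hmC passed the threshold at both kinds of end. Ends of 1 Mb were among 25 alternative settings. The adjustment covers the 16 tests within a setting and not the choice among settings. Matched 5hmC at telomere ends passed under no other setting. At 500 ng its adjusted permutation p was 0.574 with 3 Mb and 0.739 with 5 Mb. For centromere ends of 1 Mb the 500-ng ratio was 0.579 (adjusted permutation p = 0.0199, below expected in 15 of 19). The ratio for unmodified CG was 0.591 (adjusted permutation p = 0.0272). These means include chromosome 14, whose 1-Mb ratios were 0.0144 for 5hmC and 0.00169 for unmodified CG. The 1-Mb test was not repeated without that chromosome. At telomere ends the 500-ng ratio was 0.736 (adjusted permutation p = 0.0229; below in 13 of 19) and for unmodified CG 0.861 (adjusted permutation p = 0.126). 5hmC relative to unmodified CG was 0.856 there, below 1 in 16 of 19 autosomes (adjusted permutation p = 0.0158). On CGs unique on both strands, a choice made after seeing the data, the last of these remained past the threshold (0.863; adjusted permutation p = 0.0352) while the matched 5hmC ratios were 0.705 at centromere ends (adjusted permutation p = 0.0505) and 0.850 at telomere ends (adjusted permutation p = 0.113).

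The ratio of end to interior varied with local CG number. At telomere ends, isolated CGs with no other CG within 250 bp had a median 500-ng ratio of 1.46 to the interior CGs of the same class, above 1 in 15 of 19 autosomes. Their pooled coverage was 0.546 and 0.573 reads per CG, against 0.345 and 0.350 in the interiors. The median was 1.26 with 1 to 2 others, 1.05 with 3 to 5, 0.922 with 6 to 10, 0.947 with 11 to 19, 0.996 with 20 to 39 and 0.744 with 40 or more, so that it did not fall steadily. For unmodified CG the medians were 1.31, 1.23, 1.16, 0.967, 0.987, 1.15 and 1.04 over the 7 classes. At centromere ends isolated CGs had a 5hmC ratio of 1.04, and the ratio fell to 0.818 at 6 to 10 others, 0.732 at 11 to 19 and 0.571 at 20 to 39, the last below 1 in 16 of 19 autosomes. With 40 or more others it was 0.720, above 1 in 8 of 19. For unmodified CG the ratio at 20 to 39 others was 0.831. CGs with 40 or more others carried little 5hmC anywhere, with 0.139 and 0.179 reads per CG at centromere ends, 0.138 and 0.126 at telomere ends and 0.172 and 0.158 in the interiors. The same CGs had 2.17, 2.32 and 2.28 uTOP-seq reads per CG in the first replicate.

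**Figure D3:**
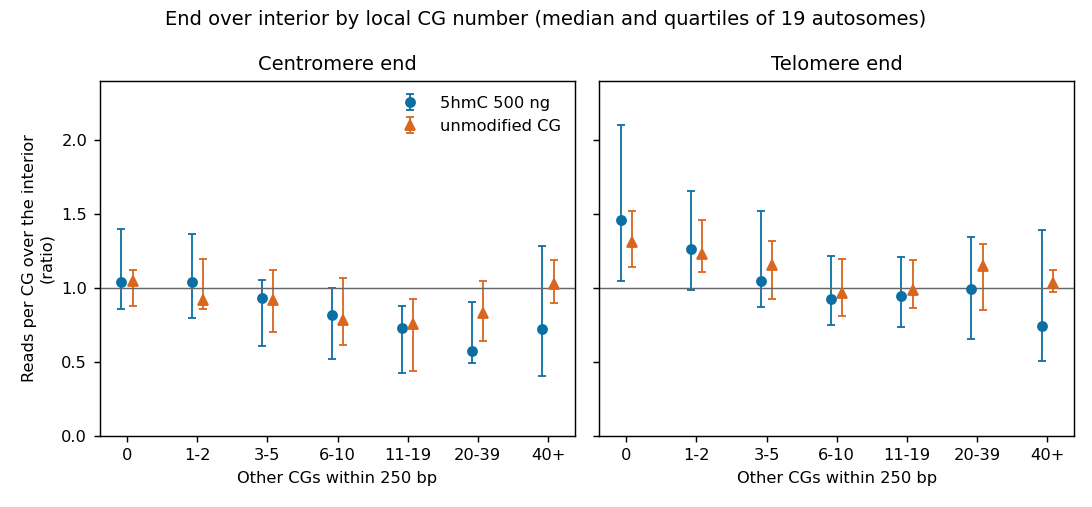
Reads per CG at an end over reads per CG in the interior of the same autosome, for classes of CGs by the number of other CGs within 250 bp, as the median over 19 autosomes with bars spanning the quartiles. Circles are 5hmC at 500 ng and triangles unmodified CG. At telomere ends the 5hmC median is 1.46 in isolated CGs, between 0.922 and 0.996 from 6 to 39 others and 0.744 in the densest class, and at centromere ends it is 1.04 in isolated CGs, 0.571 at 20 to 39 and 0.720 in the densest class.

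Both assays moved together from end to end. Across the 19 centromere ends, the log2 ratios of 5hmC and unmodified CG had a Pearson r of 0.987 (Spearman rho 0.975), or 0.951 without chromosome 14, and across the telomere ends 0.954 (rho 0.942). These ends share the assembly, the mapping rules and the base composition, and the values are descriptions. 5hmC lay lower than unmodified CG in 13 of 19 autosomes at each kind of end, with a ratio of the ratios of 0.926 at centromere ends (95% interval 0.866 to 0.990; adjusted permutation p = 0.0978) and 0.906 at telomere ends (0.841 to 0.976; adjusted permutation p = 0.0745). The largest gaps were at the centromere end of chromosome 3 (0.651) and the telomere end of chromosome 18 (0.600).

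How much of an end is unique in the assembly also moved with its coverage. The share of CGs unique on both strands was 8.02% to 95.3% at centromere ends (median 82.4%), 71.3% to 95.8% at telomere ends (median 91.2%) and 85.4% to 93.2% in the interiors. It lay below the own interior in 14 of 19 centromere ends and 8 of 19 telomere ends. The Pearson r of this share with the log2 5hmC ratio was 0.741 over 18 centromere ends without chromosome 14 (rho 0.657) and 0.864 over the 19 telomere ends (rho 0.723). On CGs unique on both strands the mean 5hmC ratio rose from 0.663 to 0.773 at centromere ends and from 0.930 to 0.949 at telomere ends. Its part in the differences between ends was not tested beyond these values. At telomere ends the 5hmC ratio also moved with GC content (r = 0.813, rho = 0.732), gene cover (r = 0.705, rho = 0.675) and, inversely, repeat cover (r = -0.734, rho = -0.598), each over 19 ends. At the 19 centromere ends, chromosome 14 included, the values were r = 0.347 and rho = 0.795 with GC content, r = 0.268 and rho = 0.590 with gene cover, and r = -0.720 and rho = -0.653 with repeat cover.

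**Figure D4:**
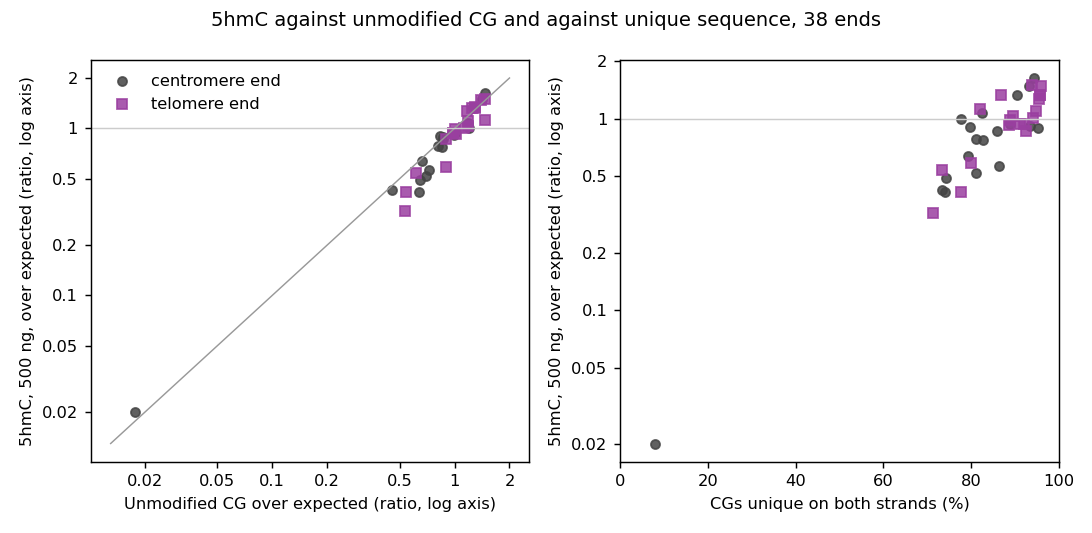
Ratio of 5hmC coverage to expected at 500 ng (log axis) for the 38 ends, against the ratio for unmodified CG (left, log axis, with the line of equality) and against the percentage of CGs whose 80-base stretch is unique on both strands (right). Circles are centromere ends and squares telomere ends. The points run along the line of equality, and the centromere end of chromosome 14 lies alone at a ratio of 0.0201 with 8.02% unique CGs.

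Features within the ends differed less at centromere ends than at telomere ends. At centromere ends the median 5hmC ratio to interior CGs of the same feature was 0.827 outside protein-coding genes, 0.875 in introns and 0.863 in exons. At telomere ends it was 1.26 outside genes, 0.972 in introns and 0.789 in exons. Exons of telomere ends had 2.17 and 2.08 reads per CG at 500 ng against 2.66 and 2.56 in interior exons, while CGs outside genes had 1.497 and 1.47 against 1.26 and 1.24. In uTOP-seq the corresponding ratios at telomere ends were 1.20 outside genes, 1.01 in introns and 0.997 in exons. Within soft-masked repeats the 5hmC ratio was 0.886 at centromere ends and 1.13 at telomere ends.

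Of the protein-coding genes, 632 lay wholly within a centromere end and 735 within a telomere end. Among those with at least 50 CGs, the median coverage at 500 ng was 1.78 and 1.79 reads per CG at centromere ends (532 genes), 1.89 and 1.85 at telomere ends (616 genes) and 1.77 and 1.74 in the interiors (16469 genes). The matched ratio was above 1 in 56.0% of these genes at centromere ends, 61.9% at telomere ends and 55.5% in the interiors. The genes with the highest and lowest 500-ng coverage were chosen by that coverage and get no test.

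At centromere ends the highest was Sfi1, with 44.2 and 42.2 reads per CG at 500 ng. Drg1 followed with 12.1 and 11.8, but it shares CGs with Sfi1, and their reads count for both genes. Its coverage without the shared CGs was not computed, so its rank may rest on them. The next were 3 further genes of chromosome 11. Osm (chr11:4236420-4241026), the cytokine oncostatin M, had 9.94 and 10.1 reads per CG, and 3.72, 2.86 and 2.33 in uTOP-seq. Inpp5j (chr11:3494375-3504821), an inositol polyphosphate 5-phosphatase, had 9.50 and 9.01, and 2.402, 2.15 and 1.959 in uTOP-seq. Its neighbor Pla2g3 (chr11:3488284-3499350), a secreted phospholipase A2, had 8.18 and 8.29, and these genes overlap. In all 3, unlike in Sfi1, nearly every CG was unique (98.2% to 100%). Tgfbr3l on chromosome 8 followed with 7.58 and 7.03. The lowest had 0 reads in all 9 labeled libraries. They were Gm3005 (1050 CGs), Gm10409 and Gm3020 (179 CGs each) on chromosome 14, of which at most 0.286% of CGs were unique, and Gm15448 on chromosome 7 (55 CGs, 70.9% unique). Genes that share near-identical copies cannot be told from absent signal here.

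At telomere ends the highest genes were Lkaaear1 (chr2:181696793-181698442), with 11.4 and 10.9 reads per CG at 500 ng, and Abhd16b, with 9.14 and 9.37, both on chromosome 2. Samd11 (chr4:156246966-156255657), a SAM-domain protein gene 102 kb from the outermost CG, had 9.26 and 8.75 and only 1.56, 1.38 and 1.18 in uTOP-seq. On chromosome 15, Acvrl1 (chr15:101128522-101145336), a type I receptor for ligands of the TGF-beta family, had 8.19 and 8.38 and the adjacent Ankrd33 had 7.80 and 8.84. Tmem52 on chromosome 4 had 8.4 and 7.62. The 4 lowest were of 2 kinds. Rps21 (chr2:180257377-180258445) and Rpl41 (chr10:128548114-128549305), which encode ribosomal proteins, had at most 0.0328 reads per CG at 500 ng but 4.63, 4.84 and 3.20 and 4.46, 3.43 and 3.66 in uTOP-seq, the reverse of Samd11. Gm21761 and Gm20767 on chromosome 13 had at most 0.0430 reads per CG at 500 ng and at most 0.108 in uTOP-seq, and 20.6% and 17.2% of their CGs were unique.

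The outermost genes with at least 20 CGs had coverage between 0.0217 and 44.2 reads per CG in the first 500-ng replicate. At centromere ends, Cdk6 on chromosome 5, a kinase of the G1 phase, had 1.503 and 1.43 reads per CG, and Insr on chromosome 8, the insulin receptor, had 1.20 and 1.23. Hnf4g on chromosome 3, a nuclear receptor, had 0.445 and 0.589, and Gm2888 on chromosome 14 had 0.0217 in both. At telomere ends, Wls on chromosome 3, which carries Wnt ligands to the cell surface, ends 0.645 kb from the outermost CG, its 3′ end outward, and had 0.504 and 0.582 reads per CG at 500 ng against 1.698, 1.24 and 1.02 in uTOP-seq. Rfc3 on chromosome 5, a subunit of the clamp loader of DNA replication, had 0.748 and 0.634 against 2.76, 2.25 and 1.76. Csf2ra on chromosome 19, a subunit of the GM-CSF receptor, had 1.88 and 1.71, and Mrgprd on chromosome 7, a receptor of sensory neurons, had 2.17 and 2.09. Vmn2r87 on chromosome 10, from a family of pheromone receptors, had 0.309 and 0.295, with 37.7% of its CGs unique.

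Gene families were counted at the ends. Of all protein-coding genes, 632 lay wholly in centromere ends, 735 in telomere ends and 19397 in the interiors. Whether a family departs from these shares was not tested. Of 1127 autosomal olfactory receptor genes (Olfr), 60 lay in the telomere end of chromosome 10 and 2 in the centromere end of chromosome 16. The 60 had a median of 0.100 and 0.170 reads per CG at 500 ng, against 0.231 and 0.217 for 1065 interior members, and 0.761, 0.640 and 0.488 in uTOP-seq against 0.839, 0.643 and 0.546. Of 112 keratin genes and neighbors (Krt), 26 lay in the telomere end of chromosome 15 with 2.93 and 2.81 reads per CG, against 1.74 and 1.87 in 86 interior members. In uTOP-seq these had 1.63, 1.31 and 1.17 against 0.936, 0.762 and 0.709. The Krt sets are unlike, with a median of 106.5 CGs per gene at the end and 13.5 in the interiors, and were not matched on local CG number. All 13 Vmn1r genes at an end lay at centromere ends, with a median of 0.0385 and 0.115 reads per CG. For Vmn2r, 1 of 121 lay at a centromere end and 6 at telomere ends. Zinc finger genes (Zfp) numbered 12 and 9 of 388, with medians of 1.52 and 1.53, and 1.77 and 1.60, against 1.14 and 1.16 in the interiors. Solute carriers (Slc) numbered 5 and 12 of 372, with 2.72 and 2.59, and 3.49 and 3.44, against 2.0 and 2.02. No gene named Defb, Prame, Ifn or H2- lay at an end.

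Windows of 100 kb were then compared between 5hmC at 500 ng and unmodified CG in edgeR (quasi-likelihood test), with folds relative to the TMM center of all windows. Over the autosomes 19491 of 23689 windows (82.3%) differed at an adjusted p under 0.05, 39.4% higher and 42.9% lower in 5hmC. Of 544 tested windows at centromere ends, 213 were higher and 211 lower, and of 577 at telomere ends 232 were higher and 248 lower. In all, 77.9% and 83.2% of the end windows were called, near the background of 82.3%. Against a fold of 1.5 (glmTreat), 144 and 162 windows passed, 26.5% and 28.1% of those tested against 31.3% over the autosomes. In windows of 1 Mb, 104 of 123 end windows were called, against 91.1% over all windows of that size. With library sizes alone in place of TMM, 24.7% of all windows were called higher and 59.1% lower, the median log2 fold over all windows moved from -0.04 to -0.32, and the higher share of the called windows fell from 47.8% to 29.5% over the autosomes, from 50.2% to 28.7% at centromere ends and from 48.3% to 30.1% at telomere ends, so the balance of directions depends on this scaling. The ends differed between chromosomes. At the centromere end of chromosome 8, 26 of 30 windows were higher and 1 lower, with a median log2 fold of 0.75, and at that of chromosome 3 1 was higher and 23 lower (median -0.76). These folds are relative to all autosomal windows, and the share called in a chromosome's own interior was not computed. The interior of chromosome 8 had 1.98 and 1.94 reads per CG at 500 ng, against 1.57 and 1.54 over all interiors. In uTOP-seq it had 1.40, 1.14 and 0.997, against 1.37, 1.11 and 0.967. High 5hmC relative to unmodified CG on chromosome 8 was thus not confined to its end. At telomere ends, chromosome 4 had 23 of 30 higher and 4 lower (median 0.57), and chromosome 18 had 1 higher and 26 lower (median -0.97). At the centromere end of chromosome 14, 2 of 30 windows had the 10 reads per library needed for the test.

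Between inputs, the calls of end windows depended on the test. At 50 ng against 500 ng, the quasi-likelihood test of edgeR called 0 of 550 windows at centromere ends and 0 of 578 at telomere ends, with 0.00421% called over all windows. At an unadjusted p under 0.05 in that test there were 69 and 107, or 12.5% and 18.5%, against 12.4% of all windows. DESeq2 called 15 and 18, all lower at 50 ng, with 1.46% called and 1.45% called lower over all windows. In windows of 1 Mb, edgeR called 29 end windows, with 16.1% called over all windows of that size. The count of 0 in edgeR also rose, at 50 and at 5 ng, when a library of that input was left out, which leaves a lone library in that group. At 5 ng against 500 ng, edgeR and DESeq2 called 0 of 539 and 0 of 566 end windows (over all windows 0% and 0.246%). In edgeR 61 and 99 had an unadjusted p under 0.05, or 11.3% and 17.5%, against 11.9% of all windows. Counts were simulated with a common dispersion per comparison, shared by all windows and both inputs. Among these, 91% of windows changed 1.5-fold were recovered at 50 ng, and 0% at 5 ng, where 16% of those changed 2-fold were recovered. Differences in spread between windows or inputs were not simulated, so these shares may not hold for the measured counts. The count of 0 at 5 ng does not show that windows were unchanged. The end ratios of the inputs can be set side by side, as at the centromere end of chromosome 11 with 1.63, 1.65 and 1.65 and at the telomere end of chromosome 18 with 0.322, 0.332 and 0.312 at 500, 50 and 5 ng.

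Control libraries without BGT had few reads at the ends, as in the interiors. At 500 ng the 2 controls had 238 and 239 reads in all centromere ends and 262 and 247 in all telomere ends, or 0.000505 and 0.000507 reads per CG and 0.000530 and 0.000499, against 0.000486 and 0.000450 in the interiors. At 50 ng the controls had 69 and 52 reads at centromere ends and 73 and 110 at telomere ends. At 5 ng they had 56 and 147 at centromere ends and 153 and 139 at telomere ends, so that the replicates lay far apart at centromere ends and close at telomere ends. Telomere ends of the 5-ng controls had 0.000309 and 0.000281 reads per CG, above the 0.000180 and 0.0002285 of the interiors, with the reads on 15 and 17 CGs. At 50 ng telomere ends had 0.000148 and 0.000222, against 0.000167 and 0.000166 in the interiors.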

How the data were processed

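Read counts per CG were used as deposited. Per the labels and the methods of the study, the authors sequenced hmTOP-seq and uTOP-seq libraries on an Ion Proton, aligned them to mm10, kept reads of at least 80 nt whose mapping quality was 30 or more, dropped duplicates by start and length, and counted reads per CG without normalization or pooling. The aligner is not given in the sources used here. Strands were summed here for uTOP-seq.

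The members and lists were chosen with earlier results of these data known. For each autosome, reads per CG at an end were divided by those expected from interior CGs in the same class of local CG number within 250 bp (0 to 39 singly, 40 and over), and log2 ratios were averaged over replicates. The mean over 19 autosomes was tested by permutation, flipping signs in 100000 draws (two-sided), with jackknife 95% intervals and Benjamini-Hochberg adjustment over 16 tests. These p-values describe the spread between autosomes of one DNA sample, and the replicates are technical. Windows of 100 kb with at least 10 reads in every library were tested with edgeR 4.0.16 (TMM, quasi-likelihood, adjusted p under 0.05), and with DESeq2 1.42.0 as an alternative, in R 4.3.3. Whether same-numbered replicates deviate together was checked over windows.

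Genes were taken from GENCODE vM21 and bases from the RefSeq assembly GRCm38.p6. An 80-nt stretch starting at a CG was called unique if it occurred once in 65 assembly sequences. Named genes were the outermost protein-coding gene of each end with at least 20 CGs, the 6 highest and 4 lowest by 500-ng reads per CG for each kind of end among those with at least 50 CGs, and 10 families by symbol prefix. No sequence of chromosome 18 was printed, so the telomere end of chromosome 17 stands for the low ones.

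Total counts were 14884939 to 32502791 per hmTOP-seq library, 20120568 to 28412885 in uTOP-seq and 3409 to 10072 in the controls, which were given beside the ends and not subtracted. The tests were checked on simulated data. Alternatives were end widths of 1 and 5 Mb, radii of 100 and 1000 bp, other scalings and filters, window size, the replicate block and single libraries or autosomes left out.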

Additional observations from a re-analysis of the deposited data

How the results depend on the processing

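Of 283 alternative values of the end comparisons under 25 settings, 250 kept their direction and their side of the 0.05 threshold, 25 passed a threshold that the value as reported had missed, and 8 changed sign, none of them past the threshold. End values here are mean log2 ratios, apart from those given by the median over autosomes, and the permutation test was used throughout. Under the median setting that test was still run on the mean, so the side of the threshold could not change. Values with ends of 1 Mb include chromosome 14. With ends of 1 Mb, the values that passed were -0.8477 (5hmC 500 ng, unmatched), -0.7894 (matched), -0.7631 (50 ng), -0.7432 (5 ng), -0.7666 (unmodified CG, unmatched) and -0.7598 (matched) at centromere ends, and -0.6406 (5hmC 500 ng, unmatched), -0.4414 (matched), -0.4158 (50 ng), -0.4235 (5 ng) and -0.2247 (5hmC relative to unmodified CG) at telomere ends. With ends of 5 Mb, -0.5515, -0.4602, -0.4378, -0.4277, -0.383 and -0.3675 passed at centromere ends, in the same order. With local CGs counted within 100 bp, -0.6332, -0.6069 and -0.5862 passed for 500, 50 and 5 ng at centromere ends, as did 5hmC relative to unmodified CG with -0.1427 there and -0.1748 at telomere ends. On unique CGs with ends of 1 Mb, a setting chosen after seeing the data, -0.6191 (centromere, 500 ng, unmatched), -0.5372 (telomere, 500 ng, unmatched) and -0.2123 (telomere, 5hmC relative to unmodified CG) passed. The sign changed for unmodified CG at telomere ends with 1 Mb (-0.2149 unmatched, -0.2166 matched), also on unique CGs (-0.05371 and -0.02144), for matched 5hmC at telomere ends by the median over autosomes (0.004129, 0.03257 and 0.04792 at 500, 50 and 5 ng), and for 5hmC relative to unmodified CG at centromere ends by the share of CGs with a read (0.04452). The cause of these changes was not tested.

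For 50 ng against 500 ng, 0 end windows were called, against 33 by DESeq2, 29 in 1-Mb windows and 41 with the replicate block (1.8% of all windows), and leaving out 1 library gave 0 to 185. For 5 ng against 500 ng, leaving out 1 library gave 0 to 632. In both, the high counts came from leaving out a library of the lower input, whose lone sample is then assumed to vary like the 500-ng pair. For 5hmC against unmodified CG, 904 end windows were called, 104 of 123 in 1-Mb windows and 306 against a fold of 1.5. Replicate numbers did not pair the samples, with correlations of deviations of 0.0363, -0.00271, 0.00211 and 0.00377, and with the block 898 end windows were called for 5hmC against unmodified CG and 0 for 5 ng.

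Of the 5-ng windows simulated with a common dispersion and changed 1.5-fold, 0% were recovered, which limits that comparison. Reads that cannot be placed uniquely limit the centromere ends, where the low coverage of duplicated sequence and a low level of the mark cannot be told apart. All libraries come from one cell line.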
